A study of Mus musculus with 12 samples.

Results

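Histones are the proteins around which DNA is wrapped, and the genes that encode them were followed here in mpkCCD cells, a mouse cell line from the cortical collecting duct of the kidney, across 2 genotypes and 2 osmolalities. The histone genes were taken by symbol (Hist1h to Hist4h, H2af and H3f3 names, H1f0 and H1fx), with no filter on expression, which gave 91 of the 54839 rows and 89 of the 53672 symbols of the deposited values. They fell into 69 replication-dependent genes, 16 symbols of variant histone genes and 4 pseudogenes. The annotation lists Hist1h2aj and Hist1h2al of the first class and H3f3c and H2afy3 of the second as pseudogenes too, and H3f3aos as an antisense RNA. The replication-dependent genes comprised 6 for the linker histone H1, 20 for H2A, 18 for H2B, 12 for H3 and 13 for H4.

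The study asked how raised tonicity and the loss of NFAT5, the transcription factor that drives the osmoprotective response, alter gene expression. Control cells (Scr) carried a CRISPR-Cas9 guide RNA with no target, and Nfat5-KO cells came from 2 knockout clones, N1 and N3. Cells of both genotypes were cultured for 5 days at 300 mosmol/kg, or at 600 mosmol/kg reached with 100 mM NaCl and 100 mM urea. There were 2 libraries each for Scr_300 and Scr_600 and 4 each for Nfat5-KO_300 and Nfat5-KO_600, and the deposited values hold 1 FPKM value (fragments per kilobase of transcript, scaled to the mapped fragments of the library) per gene and group. No spread between libraries or clones could be calculated, the depth of each library is unknown, and every difference below is a description of 4 group values with no replicate check. Nfat5 itself stood at 5.61 FPKM in Scr_300 and 3.47 in Nfat5-KO_300, and at 7.93 in Scr_600 and 6.88 in Nfat5-KO_600. The RNA level was thus lower in the knockout at both osmolalities but far from 0, and it does not show the protein. The epithelial markers Krt8, Krt18 and Cdh1 had at least 72.7 FPKM in every group, whereas the principal cell markers Aqp2, Avpr2, Scnn1b and Scnn1g stayed at or under 0.245 FPKM, with Aqp3 at 2.07 to 2.93 and Scnn1a at 1.31 to 7.03. The leukocyte, endothelial and fibroblast markers stayed at or under 0.221 FPKM, and of the intercalated cell markers Foxi1 was listed at 0, Slc4a1 was at or under 0.417 and Atp6v1b1 lay between 0.149 and 0.973. In bulk RNA, fewer cells expressing a gene and less RNA per cell cannot be told apart.

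Most cellular histone protein comes from replication-dependent genes, which lie in clusters, mostly lack introns and are transcribed in S phase while DNA is copied. Their mRNAs normally end just after a stem-loop, bound by the protein SLBP, and carry no poly(A) tail. Variant histones such as H2A.Z, H3.3 and H1.0 are made throughout the cell cycle from dispersed genes with ordinary polyadenylated mRNAs. The libraries were prepared from RNA captured on poly-T beads, so the levels of replication-dependent genes describe the transcripts that such beads retain and not the whole histone mRNA pool.

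The replication-dependent genes were located in the GENCODE M21 annotation of GRCm38. On chromosome 13 there were 56 of them, with 10 on chromosome 3, 2 on chromosome 11 and 1 on chromosome 6. A stem-loop of 16 bases was found in the annotated transcript of 43 of the 68 genes that had a single value. It occurred in 7 of 58701 protein-coding transcripts of other genes, or 0.0119%. The windows below are shown because they lie where replication-dependent mRNAs normally end. They are written 5′ to 3′ in the transcript direction, and capitals mark the stem-loop.
Hist1h1c, stem-loop, chr13:23739505-23739534, plus strand: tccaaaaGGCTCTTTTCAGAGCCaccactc
Hist3h2ba, stem-loop, chr11:58949342-58949371, plus strand: acccaaaGGCTCTTTTCAGAGCCaccttcc
Hist2h3c2, stem-loop, chr3:96238478-96238507, minus strand: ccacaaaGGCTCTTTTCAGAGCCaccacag
Hist1h4j, stem-loop, chr13:21735430-21735459, plus strand: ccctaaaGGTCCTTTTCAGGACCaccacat
Hist1h4i, stem-loop, chr13:22040959-22040988, minus strand: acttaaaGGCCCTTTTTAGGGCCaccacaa
Hist1h2ab, stem-loop, chr13:23751565-23751594, plus strand: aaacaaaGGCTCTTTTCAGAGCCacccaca
H2afx, stem-loop, chr9:44335233-44335262, plus strand: ccacaaaGGCCCTTTTAAGGGCCaccacct
The same 16 bases stood in the transcripts of Hist1h1c, Hist3h2ba and Hist2h3c2 and of Hist1h2ab, a gene that stayed under 0.5 FPKM in all groups. The annotated sequence beyond the stem-loop ran for 840 bases in Hist1h1c, 169 in Hist3h2ba and 377 in Hist2h3c2, but for 11 in Hist1h2ab. These genes differ in other ways too, as 52.4% of the 100-base stretches of Hist1h2ab and 61.6% of those of Hist2h3c2 occur in other genes. Other genes went the other way. Hist4h4 had 2445 bases after the stem-loop and at most 0.138 FPKM, while Hist1h2bb had 23 bases and reached 2.53 FPKM. H2afx, which encodes the damage-signalling variant H2A.X, was the variant gene with a stem-loop, followed by 822 bases. A poly(A) signal, AATAAA or ATTAAA in the last 50 bases, was present in 17 of the 68 replication-dependent genes. The following windows show it in capitals for 5 of them and, for comparison, in the variant gene H1f0.
Hist1h1c, poly(A) signal, chr13:23740330-23740359, plus strand: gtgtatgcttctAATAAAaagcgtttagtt
Hist3h2ba, poly(A) signal, chr11:58949495-58949524, plus strand: cataatggtattAATAAAtttggttcaatt
Hist3h2a, poly(A) signal, chr11:58956785-58956814, plus strand: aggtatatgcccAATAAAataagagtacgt
Hist2h2be, poly(A) signal, chr3:96223705-96223734, plus strand: gttattattattAATAAAgttaccgattag
Hist1h4j, poly(A) signal, chr13:21735815-21735837, plus strand: aataaaattctgAATAAAactgc
H1f0, poly(A) signal, chr15:79030471-79030500, plus strand: ttaaaactttaaAATAAAactggaaaggaa

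The share of genes that were detected well differed with these annotated ends. Among the 22 genes with more than 100 bases after the stem-loop, 13 (59.1%) reached 1 FPKM in some group. Among the 21 genes with at most 100 bases after it, 4 did (19.0%), namely Hist1h4h, Hist1h2bb, Hist1h4n and Hist1h4m. Hist1h4h also had a poly(A) signal. Of the genes with a poly(A) signal, 8 of 17 (47.1%) reached 1 FPKM, against 12 of 51 (23.5%) without one. The 25 genes with no annotated stem-loop included 12 whose model stops at the stop codon and so shows no 3′ end. Of these 25, 3 reached 1 FPKM. They were Hist1h2bc, a model with 2 exons, Hist2h2be, which had a poly(A) signal, and Hist1h4k, which ends at its stop codon. Shared sequence moved with these shares. Of the 28 genes with more than 50% of their 100-base stretches in other genes, 4 (14.3%) reached 1 FPKM, and such genes made up 12 of the 21 with at most 100 bases after the stem-loop and 2 of the 22 with more. Without them, 12 of 20 genes with more than 100 bases and 2 of 9 with at most 100 reached 1 FPKM. Annotated ends are themselves built partly from cDNA of polyadenylated transcripts, so these shares describe the gene models and were not tested.

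**Figure D1:**
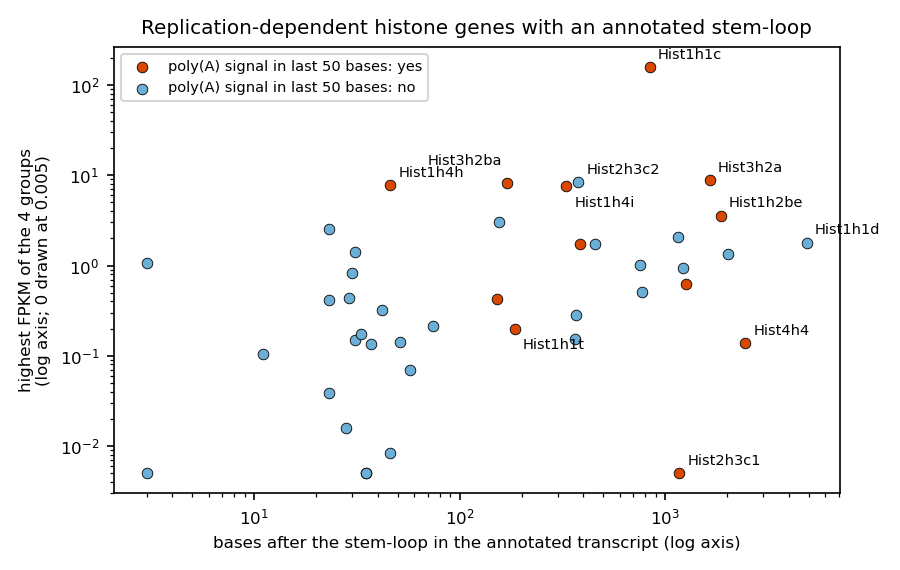
Highest FPKM of the 4 groups (log axis) against the number of bases after the stem-loop (log axis) for the 43 replication-dependent genes with an annotated stem-loop, coloured by whether a poly(A) signal lies in the last 50 bases. Beyond 100 bases 13 of 22 genes reached 1 FPKM, and at most 100 bases 4 of 21 did.

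The replication-dependent genes covered a wide range. Of the 68 with a single value, 7 were listed at 0 in every group, 43 (these 7 included) stayed under 0.5 FPKM everywhere, 20 reached 1 FPKM and 3 reached 10 FPKM. Hist2h2bb had 2 different rows and was left out of all ratios. The median gene stood at 0.0676 FPKM in Scr_300, 0.174 in Scr_600, 0.0524 in Nfat5-KO_300 and 0.141 in Nfat5-KO_600. Hist1h2bc and Hist1h1c dominated the sum. Hist1h2bc, an H2B gene at chr13:23684199-23692908, contributed 63.0% of the summed FPKM of the class in Scr_300 and 39.1% in Scr_600. It stood at 181 FPKM in Scr_300, 141 in Scr_600, 197 in Nfat5-KO_300 and 159 in Nfat5-KO_600. Hist1h2bc was therefore lower at 600 than at 300 mosmol/kg in both genotypes, with log2 ratios of -0.36 in Scr and -0.31 in Nfat5-KO cells. Hist1h1c, the H1.2 gene at chr13:23738808-23740367, stood at 75.6 FPKM in Scr_300, 158 in Scr_600, 81.5 in Nfat5-KO_300 and 101 in Nfat5-KO_600. Its highest value was in Scr_600, where it made up 43.7% of the sum, against 29.8% in Nfat5-KO_600.

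**Figure D2:**
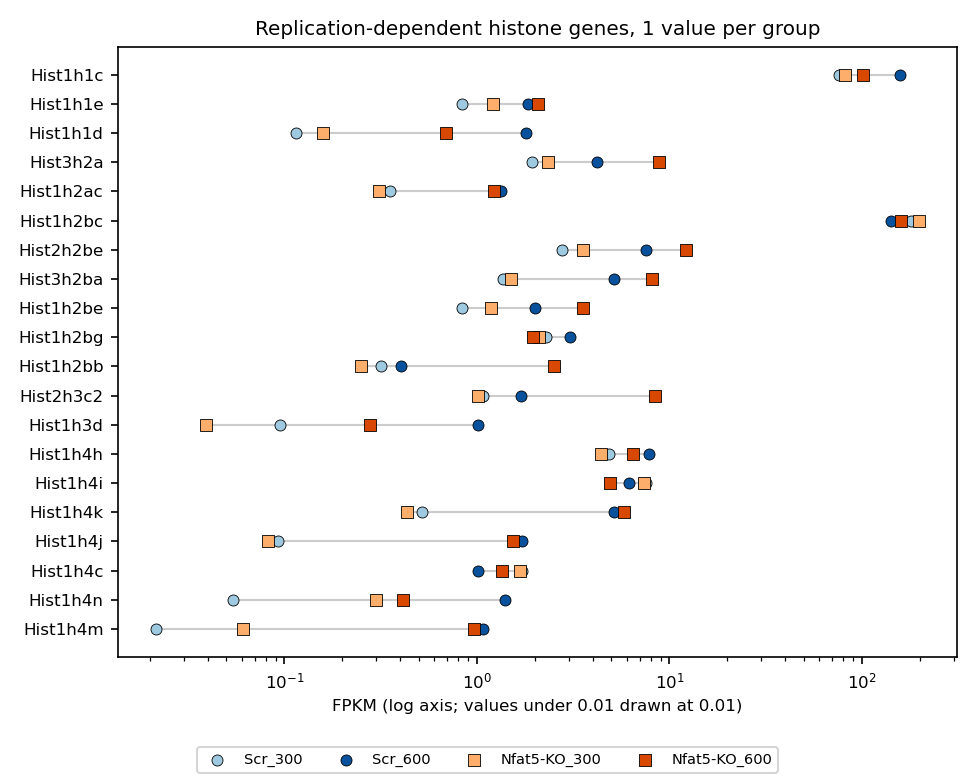
FPKM (log axis) of the 20 replication-dependent genes that reached 1 FPKM, ordered by protein from H1 at the top to H4 at the bottom, with circles for Scr and squares for Nfat5-KO, pale at 300 and dark at 600 mosmol/kg. Hist1h2bc and Hist1h1c lie above 75 FPKM in all groups, while Hist1h4j, Hist1h4m and Hist1h1d are at or under 0.158 FPKM at 300 and above 0.6 FPKM at 600 mosmol/kg.

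In Scr cells, most of the replication-dependent genes that could be compared were higher at 600 than at 300 mosmol/kg. A gene was compared where either group reached 0.5 FPKM. Ratios are on the log2 scale after adding 0.1 FPKM to each value, so differences of low genes come out too small. Of 24 genes, 20 were higher at 600 mosmol/kg and 16 were at least 2-fold higher, with a median log2 ratio of 1.14. Of all 12929 compared genes, 45.4% were higher and 4.81% at least 2-fold higher, and their median was -0.04. None of the 24 was at least 2-fold lower, against 2.86% of all genes. A gene that entered only through its value at 600 mosmol/kg had to be higher there, so the count depends on the filter. Among the 13 genes with at least 0.5 FPKM at both osmolalities, 7 were at least 2-fold higher, with 2.74% over all genes and a median of 1.06. With no filter, 47 of the 61 genes above 0 in either group were higher at 600 mosmol/kg. Their median was 0.61, beside -0.0052 over all genes above 0, for which the share higher was not calculated.

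The same comparison in Nfat5-KO cells gave 16 of 21 genes higher at 600 mosmol/kg and 12 at least 2-fold higher, with a median log2 ratio of 1.51. Over all 12982 genes the shares were 47.1% for higher, 6.25% for 2-fold higher and 4.11% for 2-fold lower levels, and 0 of the 21 histone genes were 2-fold lower. Among the 13 genes with at least 0.5 FPKM at both osmolalities, 5 were at least 2-fold higher, against 3.73% of all genes, and the median was 0.56. With no filter, 46 of 59 were higher at 600 mosmol/kg, with a median of 0.54, beside 0.041 over all genes above 0. The share of those genes that were higher was not calculated. A higher level at 600 mosmol/kg was thus seen in most of the compared genes of each genotype. In part the filter fixed this direction. Hist1h1d, Hist1h2ac, Hist1h2bb, Hist1h4j, Hist1h4k, Hist1h4m and Hist2h4 entered the Nfat5-KO comparison through Nfat5-KO_600 alone. Of the 12 genes with at least 0.5 FPKM in all 4 groups, 8 were higher at 600 mosmol/kg in both genotypes, beside 3655 of all 11637 such genes.

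The H1 genes encode linker histones, which bind DNA between nucleosomes, and 4 of the 4 compared were at least 2-fold higher in Scr_600 than in Scr_300, Hist1h1b and Hist1h1d having entered through their Scr_600 value alone. Hist1h1c was 2.08-fold higher there but 1.23-fold higher in Nfat5-KO cells. Hist1h1d had 0.115 FPKM in Scr_300 and 1.79 in Scr_600, and 0.158 and 0.689 in the corresponding Nfat5-KO groups. Hist1h1e had 0.834 and 1.85 FPKM in Scr cells and 1.22 and 2.09 in Nfat5-KO cells, though 25.7% of its exon sequence overlaps Gm11398 and Hist1h2be. Hist1h1b was near 0 except in Scr_600, at 0.00381 FPKM in Scr_300, 0.844 in Scr_600, listed at 0 in Nfat5-KO_300 and 0.0414 in Nfat5-KO_600. The summed FPKM of the H1 genes was 2.12 times as high at 600 as at 300 mosmol/kg in Scr cells and 1.25 times as high in Nfat5-KO cells.

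H2A and H2B form the dimers on the outside of the nucleosome core. Hist3h2a, an H2A gene, had 1.92 FPKM in Scr_300, 4.23 in Scr_600, 2.34 in Nfat5-KO_300 and 8.83 in Nfat5-KO_600, and 33.0% of its exon sequence overlaps Trim17 and Gm44313. Hist1h2ac had 0.353 and 1.33 FPKM in Scr cells and 0.312 and 1.22 in Nfat5-KO cells. Both H2A genes were thus higher at 600 mosmol/kg in both genotypes. Among the H2B genes, Hist2h2be had 2.78 and 7.55 FPKM in Scr cells and 3.55 and 12.2 in Nfat5-KO cells. Hist3h2ba had 1.36 and 5.13 FPKM in Scr cells and 1.49 and 8.14 in Nfat5-KO cells, a 3.58-fold and a 5.17-fold difference. Hist1h2be had 0.832 and 1.99 FPKM in Scr cells and 1.18 and 3.56 in Nfat5-KO cells. These 3 genes were highest in Nfat5-KO_600. Hist1h2bb stood apart, at 0.319 FPKM in Scr_300, 0.405 in Scr_600, 0.251 in Nfat5-KO_300 and 2.53 in Nfat5-KO_600, so that its level was high in a single group. Hist1h2bg, with 2.30 and 3.03 FPKM in Scr cells and 2.10 and 1.95 in Nfat5-KO cells, differed little by osmolality.

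H3 and H4 form the central tetramer of the nucleosome. Hist2h3c2, an H3 gene, had 1.07 FPKM in Scr_300, 1.69 in Scr_600, 1.01 in Nfat5-KO_300 and 8.42 in Nfat5-KO_600. The hypertonic difference was 7.67-fold in Nfat5-KO cells and 1.53-fold in Scr cells, but 61.6% of its 100-base stretches occur in other genes, so reads could be assigned to its copies. Hist1h3d had its highest value in Scr_600 instead, with 0.0949 and 1.01 FPKM in Scr cells and 0.0390 and 0.278 in Nfat5-KO cells.

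The H4 genes all encode the same protein. The share of their 100-base stretches that occur in other genes ran from 0% for Hist1h4d and Hist2h4 to 88.1% for Hist1h4m. Hist1h4k had 0.516 FPKM in Scr_300, 5.13 in Scr_600, 0.434 in Nfat5-KO_300 and 5.80 in Nfat5-KO_600. Hist1h4j had 0.0926 and 1.72 FPKM in Scr cells and 0.0822 and 1.54 in Nfat5-KO cells. Both were low at 300 and several-fold higher at 600 mosmol/kg, in both genotypes. Hist1h4m had 0.0216 and 1.08 FPKM in Scr cells and 0.0607 and 0.967 in Nfat5-KO cells. Hist1h4n had 0.0540 and 1.40 FPKM in Scr cells and 0.299 and 0.412 in Nfat5-KO cells. Hist1h4m and Hist1h4n share 88.1% and 80.7% of their 100-base stretches with other genes, mostly with each other, and Hist1h4k shares 64.3%, so the split between these copies is uncertain. Hist1h4d and Hist2h4 were low throughout, at 0.504 and 0.531 FPKM in Scr_600, and both were at least 2-fold higher there than in Scr_300. Hist1h4h had 4.84 and 7.82 FPKM in Scr cells and 4.42 and 6.48 in Nfat5-KO cells. Against this direction, Hist1h4i had 7.53 and 6.16 FPKM in Scr cells and 7.37 and 4.93 in Nfat5-KO cells, and Hist1h4c had 1.71 and 1.01 in Scr cells and 1.68 and 1.35 in Nfat5-KO cells. Hist1h4i, Hist1h4c, Hist1h2bc and Hist1h2bk were the genes lower at 600 mosmol/kg in both genotypes, each by less than 2-fold with 0.1 FPKM added. Hist1h2bk had 0.533 and 0.274 FPKM in Scr cells and 0.835 and 0.373 in Nfat5-KO cells, and without the added 0.1 FPKM its level in Nfat5-KO_600 was 2.24-fold lower, with 70.8% of its 100-base stretches shared with other genes.

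Without Hist1h2bc and Hist1h1c, the summed FPKM of the other 66 replication-dependent genes was 30.4 in Scr_300 and 61.9 in Scr_600, a ratio of 2.04. The corresponding sums were 31.9 and 77.3 in Nfat5-KO cells, a ratio of 2.42. Without Hist1h2bc alone the ratios were 2.07 and 1.57, and with both genes included they were 1.26 and 1.09. The size of the ratio thus depended on these abundant genes, while its direction did not.

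**Figure D3:**
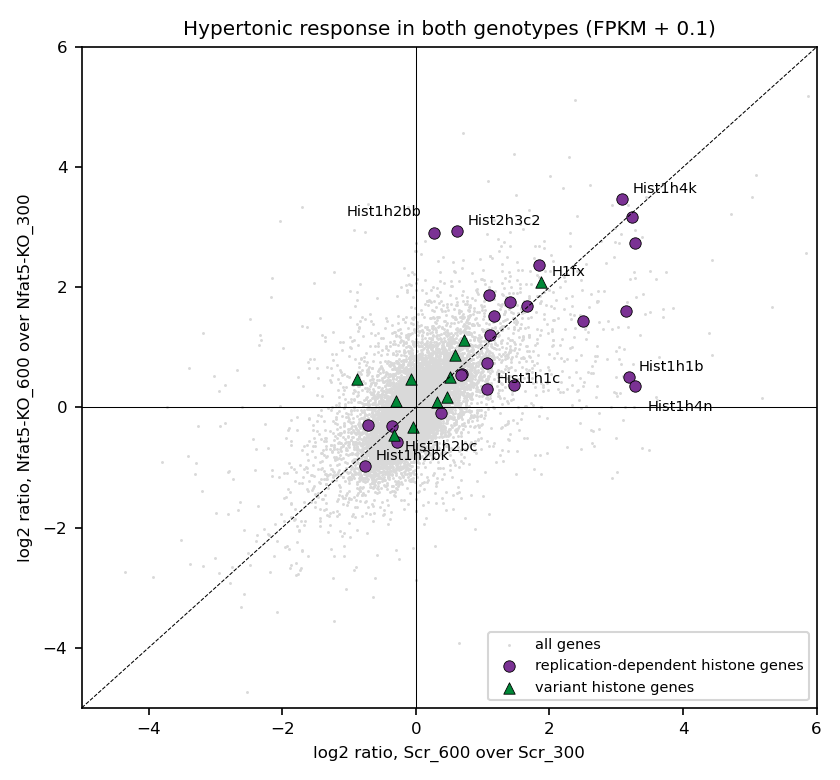
Log2 ratio of FPKM + 0.1 at 600 over 300 mosmol/kg in Scr cells (horizontal axis) and Nfat5-KO cells (vertical axis) for genes that reached 0.5 FPKM in any group, with replication-dependent genes as circles, variant genes as triangles, all genes as grey points and equal ratios as a dashed line. Of 25 replication-dependent genes, 20 were higher at 600 mosmol/kg in both genotypes and 4 lower in both. Of all 13414 genes, 4465 were higher in both and 5383 lower in both. A gene that passed through a 600 mosmol/kg value alone had to be higher there in that genotype. With 0.5 FPKM or more in all 4 groups, 8 of 12 replication-dependent genes were higher in both.

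Both hypertonic ratios of a gene can be set side by side, as they share no group. Of the 25 replication-dependent genes that reached 0.5 FPKM anywhere, 24 had the same sign in both genotypes (96%), with Hist1h2bg as the exception, and 73.4% of 13414 genes did so. For genes that passed only through their values at 600 mosmol/kg, such as Hist1h1d, Hist1h2ac, Hist1h4j, Hist1h4m and Hist2h4, the positive sign was fixed by the filter. Of the 12 replication-dependent genes with 0.5 FPKM or more in all 4 groups, 11 had the same sign (8 higher and 3 lower), as did 73.7% of 11637 genes. Across these 25 genes, which are not independent replicates, Pearson's r was 0.55 and Spearman's rho 0.51, with 0.59 and 0.61 over all genes. The ratio was larger in Nfat5-KO cells for 11 of the 25, with a median difference of -0.13. Over all genes it was larger for 6441 of 13414, with a median difference of -0.015, so the count lay near that share. The widest gaps lay in opposite directions, from 2.63 for Hist1h2bb and 2.33 for Hist2h3c2 to -2.69 for Hist1h1b and -2.92 for Hist1h4n. Hist1h2bb reached 0.5 FPKM in Nfat5-KO_600 alone, and Hist1h1b and Hist1h4n in Scr_600 alone. The filter therefore favoured a gap of that sign for these genes. Hist2h3c2 and Hist1h4n share 61.6% and 80.7% of their 100-base stretches with other genes, so their gaps are uncertain too.

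The comparison of genotypes sets Nfat5-KO beside Scr cells at a given osmolality. All Nfat5-KO values come from clones N1 and N3, so the loss of NFAT5 and clonal differences cannot be told apart. At 300 mosmol/kg, 15 replication-dependent genes reached 0.5 FPKM in either group. Their log2 ratios ran from -0.21 to 0.56 with a median of 0.13. Of the 15, 0 were 2-fold or more above Scr_300 (1.73% of all 12704 genes) and 0 were 2-fold or more below it (2.44% of all genes). With shares this small, counts of 0 among 15 genes do not set them apart from all genes. At 600 mosmol/kg, with the Scr_600 values also used above, 24 genes were split evenly, 12 higher and 12 lower in Nfat5-KO_600, with a median of 0.03. At least 2-fold higher were 3 genes (3.76% of all 13063 genes), namely Hist1h2bb, Hist2h3c2 and Hist3h2a, with log2 ratios of 2.38, 2.25 and 1.05. At least 2-fold lower were 4 genes (3.68% of all genes), namely Hist1h1b, Hist1h3d, Hist1h4n and Hist1h1d, with log2 ratios of -2.74, -1.56, -1.55 and -1.26. Hist1h1b, Hist1h3d and Hist1h4n passed the filter through Scr_600 alone, and Hist1h2bb through Nfat5-KO_600 alone. The direction of these genes was therefore fixed by the filter. Among the 19 genes with at least 0.5 FPKM in both groups, 2 were at least 2-fold higher and 1, Hist1h1d, at least 2-fold lower, beside 2.02% and 2.27% of all genes under that filter.

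By protein, the directions of the genotype ratios at 600 mosmol/kg were set beside the shares over all genes. Of the 4 H1 genes compared, 3 were lower in Nfat5-KO_600, Hist1h1e being the exception, and over all genes 52.2% were lower. Of the 7 H2B genes, 6 were higher in Nfat5-KO_600, with a median log2 ratio of 0.66, beside 47.8% of all genes. Hist1h2bg was the lower one. Of the 9 H4 genes, 6 were lower, with a median of -0.15. The direction of Hist1h1b, Hist1h4d and Hist1h4n was fixed by the filter, since they passed through Scr_600 alone, and so was that of Hist1h2bb, which passed through Nfat5-KO_600 alone. With 0.5 FPKM or more in both groups, 2 of 3 H1 genes were lower, 5 of 6 H2B genes were higher and 4 of 7 H4 genes were lower. Of all 12102 genes under that filter, 5703 were higher and 6399 lower, so the H4 count lay near the share over all genes. The counts by protein cover few genes that share sequence and gene clusters, and no test was made.

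The variant genes had higher levels, and few of them differed by 2-fold. Of 16 symbols, 11 reached 1 FPKM, 8 reached 10 FPKM and 4 reached 100 FPKM, whereas H2afb1, H2afb2, H2afb3, H2afy3 and H3f3aos stayed under 0.5 FPKM. Their summed level was 1111 FPKM in Scr_300, 1095 in Scr_600, 914 in Nfat5-KO_300 and 911 in Nfat5-KO_600. It was alike at both osmolalities and lower in Nfat5-KO cells at both. In Scr cells, 1 of 11 was at least 2-fold higher at 600 mosmol/kg and 0 lower, with a median log2 ratio of 0.31, beside 4.81% and 2.86% of all genes. In Nfat5-KO cells, 2 of 11 were at least 2-fold higher and 0 lower, with a median of 0.47, beside 6.25% and 4.11% of all genes. These were H2afx and H1fx, of which H1fx passed the filter through Nfat5-KO_600 alone. Between genotypes, 0 of 11 were 2-fold above and 2 were 2-fold below Scr in Nfat5-KO_300, with a median of -0.35 and 9 of 11 lower, beside 1.73% above, 2.44% below and 50.2% lower over all genes. Of these 2, H1fx passed through Scr_300 alone and H3f3c is an annotated pseudogene. At 600 mosmol/kg 0 of 11 differed by 2-fold in either direction, with a median of -0.19, beside 3.76% and 3.68% of all genes.

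The linker variants were both below their Scr level in Nfat5-KO cells. H1f0, which encodes H1.0, a form found in slowly dividing and differentiated cells, had 278 FPKM in Scr_300, 268 in Scr_600, 196 in Nfat5-KO_300 and 156 in Nfat5-KO_600. Both Nfat5-KO values of H1f0 lay below both Scr values, with log2 ratios of -0.50 at 300 and -0.78 at 600 mosmol/kg. This order also held for H2afy, H2afy2 and H3f3a. With 1 value per group it shows no separation of replicates, and the share of all genes with this order was not calculated. H1fx had 0.705 FPKM in Scr_300, 2.86 in Scr_600, 0.280 in Nfat5-KO_300 and 1.52 in Nfat5-KO_600. It was 3.68-fold higher at 600 mosmol/kg in Scr cells and 4.26-fold higher in Nfat5-KO cells, and lower in Nfat5-KO cells at both osmolalities, with log2 ratios of -1.08 and -0.87.

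Among the H2A variants, most were higher at 600 mosmol/kg. H2afz, which encodes the promoter-associated H2A.Z, had 134 and 192 FPKM in Scr cells and 128 and 182 in Nfat5-KO cells, although 58.8% of its 100-base stretches occur in other genes. H2afv, which encodes a second H2A.Z, had 38.8 and 58.3 FPKM in Scr cells and 41.7 and 76.0 in Nfat5-KO cells. H2afx had 7.64 and 12.6 FPKM in Scr cells and 5.99 and 13.2 in Nfat5-KO cells, the latter a 2.18-fold difference. These 3 genes were higher at 600 mosmol/kg in both genotypes. H2afj had 49.6 and 47.2 FPKM in Scr cells and 53.9 and 75.0 in Nfat5-KO cells, so that only Nfat5-KO_600 stood apart among its 4 values. The macroH2A genes, which encode H2A with a large extra domain, had lower values in Nfat5-KO cells. H2afy had 71.5 and 88.7 FPKM in Scr cells and 63.8 and 67.7 in Nfat5-KO cells. H2afy2 had 4.60 and 6.37 FPKM in Scr cells and 3.39 and 3.84 in Nfat5-KO cells.

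H3f3a and H3f3b encode the same H3.3 protein, which replaces H3 outside replication. H3f3b had 401 FPKM in Scr_300, 318 in Scr_600, 337 in Nfat5-KO_300 and 246 in Nfat5-KO_600. H3f3a had 117 FPKM in Scr_300, 95.8 in Scr_600, 78.2 in Nfat5-KO_300 and 84.2 in Nfat5-KO_600, with 22.5% of its exon sequence overlapping Gm17275. Both were below their Scr level in Nfat5-KO cells at each osmolality, and H3f3b was lower at 600 mosmol/kg in both genotypes. H3f3c, annotated as a processed pseudogene, had 8.21 and 4.41 FPKM in Scr cells and 4.02 and 5.61 in Nfat5-KO cells. As 56.7% of its 100-base stretches occur in other genes, H3f3a among them, its values may hold reads of these copies. The pseudogenes H3f3a-ps1 and H3f3a-ps2 reached 8.48 and 1.59 FPKM at most. Hist3h2bb-ps had 0.128 and 0.555 FPKM in Scr cells and 0.248 and 0.833 in Nfat5-KO cells.

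**Figure D4:**
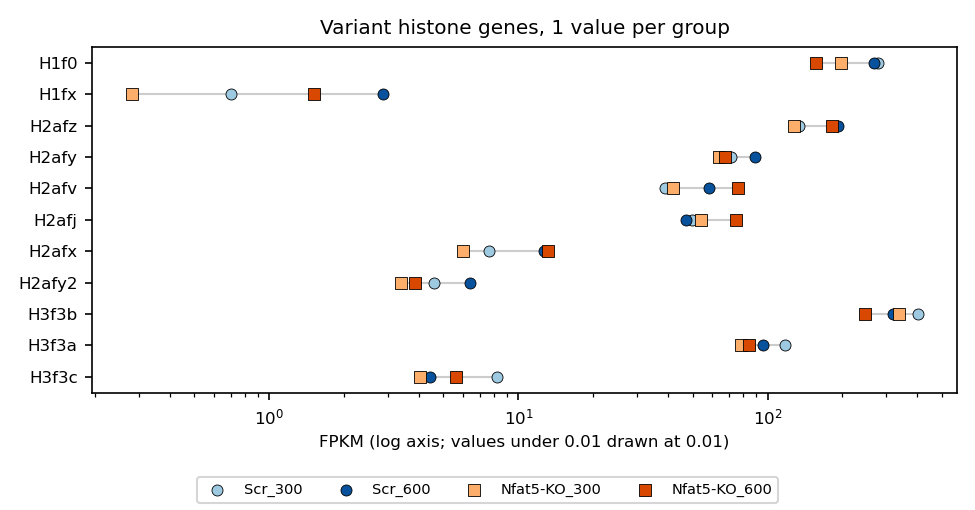
FPKM (log axis) of the 11 variant histone genes that reached 1 FPKM, with circles for Scr and squares for Nfat5-KO, pale at 300 and dark at 600 mosmol/kg. The squares of H1f0 lie at 196 and 156 FPKM, left of both circles, and H1fx spans 0.280 to 2.86 FPKM.

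Genes that act around histone supply were read beside these values. A list of 20 genes, Mki67, Top2a and Slc29a1 among them, was taken for S phase, the stage at which histone genes are normally transcribed. Whether each gene is particular to that stage was not tested. Of the 20, 0 differed by 2-fold in any of the 4 comparisons with 0.1 FPKM added. Their median log2 ratios at 600 over 300 mosmol/kg were -0.17 in Scr and -0.31 in Nfat5-KO cells. Slc29a1 was the exception with 0.01 FPKM or nothing added, being 2.04-fold lower in Nfat5-KO_600 than at 300 mosmol/kg without an addition. Of the 20 genes, 15 were lower at 600 mosmol/kg in each genotype, beside 54.6% of all genes in Scr and 52.9% in Nfat5-KO cells. The shares of all genes at 2-fold given above (4.81% and 2.86% in Scr, 6.25% and 4.11% in Nfat5-KO cells) stand beside the counts of 0 in these lists too. Of 18 genes for 3′ end processing, transcription and decay of histone mRNA, 0 differed by 2-fold, and their medians were 0.0005 in Scr and 0.05 in Nfat5-KO cells. Slbp, singled out after its values were seen because its protein binds the stem-loop, had 24.4 and 23.2 FPKM in Scr cells and 20.6 and 21.3 in Nfat5-KO cells. Of the histone chaperones and exchange factors compared (23 in Scr and 24 in Nfat5-KO cells), 0 differed by 2-fold, with medians of -0.14 and -0.21. The part of proliferation in the histone values was not tested.

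**Figure D5:**
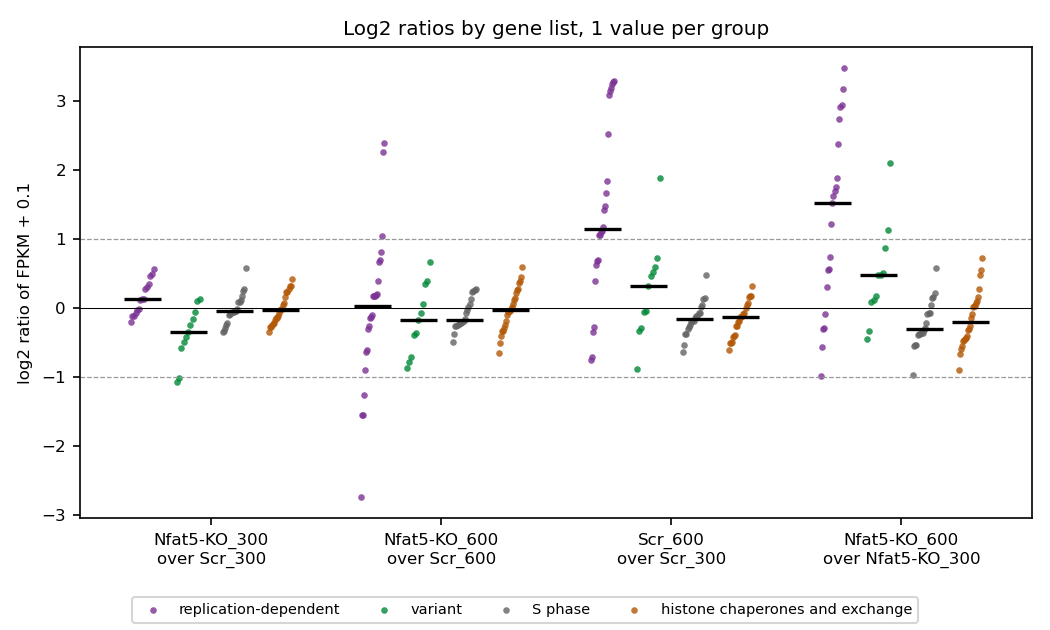
Log2 ratios of FPKM + 0.1 of single genes (points) and their medians (black bars) in the 4 comparisons, for replication-dependent and variant histone genes, S phase genes and histone chaperones, with dashed lines at 2-fold. The replication-dependent medians are 1.14 and 1.51 at 600 over 300 mosmol/kg, while S phase medians are -0.17 and -0.31.

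Many histone genes lie head to head, with a shared region between their starts, and 15 such pairs within 1000 bases were found. An H2A and an H2B gene were partners in 13 of them, Hist1h2bh faced the H3 gene Hist1h3f, and Hist3h2a faced the pseudogene Hist3h2bb-ps. Partners often had very different levels. Hist1h2ac and Hist1h2bc start 251 bases apart, yet had 0.353 and 181 FPKM in Scr_300. Hist2h2ac and Hist2h2be start 239 bases apart, and Hist2h2ac stayed under 0.5 FPKM in every group while Hist2h2be reached 12.2. Hist1h2ae and Hist1h2bg start 176 bases apart and had 0.0904 and 2.30 FPKM in Scr_300. Hist3h2bb-ps and Hist3h2a start 173 bases apart, and both were higher at 600 mosmol/kg in both genotypes. Partners could therefore differ in level by large factors. A shared direction was not particular to the pair on chromosome 11. Hist1h2bh and Hist1h3f were both higher at 600 mosmol/kg in both genotypes, and Hist1h2ah and Hist1h2bk both lower. Of these, Hist1h3f and Hist1h2ah stayed under 0.5 FPKM in every group. Hist1h2ac and Hist1h2bc went in opposite directions.

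RefSeq promoters (GRCm38.p6, 250 bases before to 50 after the start) were held for 62 replication-dependent and 12 variant gene starts. The letters CCAAT, on either strand, were in 85.5% of the replication-dependent promoters, 66.7% of the variant promoters and 37.4% of all 32851 promoters. By protein, CCAAT was in all 6 H1, 17 H2A, 17 H2B and 10 H3 promoters held, but in 3 of 12 for H4. TATAAA, on either strand, was in 56.5% of the replication-dependent promoters, 8.33% of the variant promoters and 13.6% of all. TGGAAA, the start of the element that NFAT5 binds, was in 24.2% of the replication-dependent promoters, 0 of the 12 variant promoters and 21.4% of all. A match is a run of letters and not a bound site. The promoters of Hist3h2ba and Hist1h4j are shown because both genes were higher at 600 mosmol/kg in both genotypes while their letters differ. Capitals mark CCAAT in either direction, and they mark TATAAA in the printed direction.
Hist3h2ba, promoter, chr11:58948661-58948960, plus strand: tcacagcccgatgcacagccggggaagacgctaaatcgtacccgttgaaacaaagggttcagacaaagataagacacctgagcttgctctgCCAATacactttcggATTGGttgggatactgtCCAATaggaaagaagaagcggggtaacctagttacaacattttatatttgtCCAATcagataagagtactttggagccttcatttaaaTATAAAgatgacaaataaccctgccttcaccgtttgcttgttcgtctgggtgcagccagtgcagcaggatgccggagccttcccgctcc
Hist1h4j, promoter, chr13:21734784-21735083, plus strand: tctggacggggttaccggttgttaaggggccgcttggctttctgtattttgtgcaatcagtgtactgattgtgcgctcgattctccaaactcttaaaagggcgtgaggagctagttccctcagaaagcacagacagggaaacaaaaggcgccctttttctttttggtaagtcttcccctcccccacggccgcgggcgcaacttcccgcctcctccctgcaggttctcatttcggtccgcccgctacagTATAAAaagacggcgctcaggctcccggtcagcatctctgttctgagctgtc
The promoter of Hist3h2ba holds 4 CCAAT matches besides TATA matches, while that of Hist1h4j holds no CCAAT match. Neither promoter holds the letters of the NFAT5 element.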

How the data were processed

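RNA-seq libraries of mpkCCD cells were made with poly-T beads. The authors aligned reads to GRCm38 (mm10) by HISAT2 and used HTSeq for the counts behind their RPKM, and the deposited values are FPKM with 1 value per gene and group. The way in which libraries were combined, the strand setting of the counting and the annotation release are not given in the sources used here. Rows without a value (2436) and 311 exact duplicates were dropped, and 37 symbols with several different values were left out, leaving 52015 genes. Log2 ratios used a pseudocount of 0.1 FPKM and a minimum of 0.5 FPKM in at least 1 of the 2 groups. No p-value was calculated, since there is 1 value per group. Histone genes that reached 1 FPKM, or at least 2-fold different in a comparison, are named, with the few others marked or shown by group. Members and lists were chosen with earlier results of these data known. Stem-loops were searched as a 16-base pattern and poly(A) signals in the last 50 bases of the main GENCODE M21 transcript, and shared sequence was counted in 100-base stretches. Medians and counts were recalculated with pseudocounts of 1 and 0.01, other filters, other scaling and without genes that share sequence. Restriction to genes past 0.5 FPKM in every group used, removal of shared genes from the counts by transcript end, and other pseudocounts for the other lists were chosen after seeing the data. The ratio step was tested on simulated data. The work used Python 3.11.15 with pandas 2.3.3, numpy 2.4.6 and matplotlib 3.10.9.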

Additional observations from a re-analysis of the deposited data

Results flagged for a closer look

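Several histone genes moved in opposite directions in the 2 genotypes or at the 2 osmolalities, with both log2 ratios at least 0.1 from 0, and with 1 value per group none of these differences was tested. H3f3a had a log2 ratio at 600 over 300 mosmol/kg of -0.29 in Scr and 0.11 in Nfat5-KO cells. For H3f3c the same ratios were -0.88 and 0.47. The ratio of Nfat5-KO over Scr was 0.11 at 300 and -0.65 at 600 mosmol/kg for Hist1h1c. It was -1.01 and 0.34 for H3f3c, -0.41 and 0.21 for H3f3a-ps1, and -0.21 and 0.17 for Hist1h4k. H3f3c and Hist1h4k share more than 50% of their 100-base stretches with other genes.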

How the results depend on the processing

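With 1 value per group, no result has a replicate check. No paired analysis was possible because the columns carry no replicate numbers, and leaving out single libraries could not be run either. The medians and the counts of genes at least 2-fold different were recalculated under 7 alternatives, of which the minimum of 0.5 FPKM in both groups was chosen after seeing the data. Of 168 recalculated values, 130 moved by less than 0.1 (medians) or stayed within 1.5 times (counts), 36 moved further and 2 medians of at least 0.1 changed sign. The genotype median of replication-dependent genes at 600 mosmol/kg, near 0 at 0.03, also changed sign, to -0.072 with no filter and -0.021 under median-of-ratios scaling. Replication-dependent genes kept a positive hypertonic median in both genotypes under every alternative run, at 0.61 to 1.34 in Scr and 0.54 to 1.58 in Nfat5-KO cells. With a pseudocount of 1 FPKM these medians were 0.75 (8 genes at least 2-fold higher) and 0.54, 0 replication-dependent genes were 2-fold below Scr_600 in Nfat5-KO_600, 0 variant genes were 2-fold lower in Nfat5-KO_300, and 1 variant gene was 2-fold higher in Nfat5-KO_600 than in Nfat5-KO_300. The matching shares over all genes, in the same order, were 1.94%, 1.55%, 0.685% and 2.00%. With 0.01 FPKM the Scr median was 1.34, and 1 replication-dependent gene, as under median-of-ratios scaling, was 2-fold below Nfat5-KO_300 in Nfat5-KO_600. Of all genes, 4.64% were 2-fold lower there with 0.01 FPKM and 4.41% under that scaling. With no filter, the hypertonic medians of replication-dependent genes were 0.61 and 0.54 with 1 gene 2-fold lower in each genotype, their genotype medians were -0.020 at 300 (1 gene 2-fold higher, 1 lower) and -0.072 at 600 mosmol/kg (7 lower), and the variant medians were -0.23 and -0.052 between genotypes and -0.050 for Scr_600 over Scr_300. Shares of all genes 2-fold lower at 600 mosmol/kg were then 3.00% in Scr and 2.77% in Nfat5-KO cells. Between genotypes, 2.21% were higher and 2.46% lower at 300, and 2.89% were lower at 600 mosmol/kg. With a mean of at least 1 FPKM, 7 replication-dependent genes in Scr and 6 in Nfat5-KO cells (median 0.73) were 2-fold higher at 600 mosmol/kg, and between genotypes at 600 mosmol/kg the median was 0.18 with 0 lower. The shares over all genes were 3.07% and 4.03% higher, and 2.46% lower between genotypes. With 0.5 FPKM in both groups, the counts were 7 and 5 (median 0.56 in Nfat5-KO), the genotype median at 600 mosmol/kg was 0.17 with 1 lower, 1 variant gene was lower in Nfat5-KO_300, and the variant hypertonic median in Nfat5-KO cells was 0.32 with 1 higher. Over all genes, 2.74% in Scr and 3.73% in Nfat5-KO cells were 2-fold higher at 600 mosmol/kg. Between genotypes, 1.20% were 2-fold lower at 300 and 2.27% at 600 mosmol/kg. Without genes that share more than 50% of their sequence, the replication-dependent hypertonic median in Nfat5-KO cells was 1.21, and the variant medians were 0.17 for that ratio and -0.37 between genotypes at 600 mosmol/kg, with 1 variant gene 2-fold lower in Nfat5-KO_300. The share of all genes 2-fold lower in Nfat5-KO_300 was 2.44%. Stricter filters hold fewer genes, and the cause of the other shifts was not tested.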
